A study of Homo sapiens with 18 samples.

Results

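The noncoding host genes of small nucleolar RNAs (snoRNAs) were followed across the 9 conditions measured. They were taken from both count tables as every symbol made of SNHG and a number, together with GAS5, ZFAS1 and EPB41L4A-AS1, which gave 31 of 60603 genes. The cells were MDA-MB-231, an established line of basal-like breast cancer, and poly(A) RNA was sequenced from 2 biological replicates of each condition. In the transient system, 6 libraries came from control cells given vehicle, cells given 0.6 µM doxorubicin (a drug that damages DNA) for 48 h, and cells whose label names transfection of FLAG-tagged ZMYND8 ahead of the same drug. The protocol names an empty vector as the counterpart of FLAG-ZMYND8, and the control labels give the state as untreated. In the inducible system, 12 libraries came from cells that carry pInducer20, a lentiviral vector under G418 selection, with either GFP or FLAG-ZMYND8 under a doxycycline-driven promoter. Both lines received 250 ng/mL doxycycline throughout, and each was measured without doxorubicin and after 6 h or 48 h of 0.6 µM doxorubicin. Each construct is represented by 1 line, so line and construct cannot be told apart. In the text and plots, dox stands for doxorubicin.

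A snoRNA host gene carries snoRNAs in its introns. After splicing, box C/D snoRNAs (SNORD genes) guide ribose methylation and box H/ACA snoRNAs (SNORA genes) guide pseudouridylation of ribosomal RNA, while SCARNA genes act on spliceosomal RNA in Cajal bodies. The spliced exons of noncoding hosts are often degraded when ribosomes engage them, through nonsense-mediated decay. Several hosts, GAS5 among them, belong to the 5′ terminal oligopyrimidine (TOP) genes, which begin with a C and a run of pyrimidines, as do the genes of ribosomal proteins. GAS5 was named for its accumulation in growth-arrested cells.

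By RefSeq annotation, 29 of the 31 genes contain snoRNA or scaRNA genes. Of these, 12 contain SNORD genes alone, 10 SNORA genes alone, 4 SCARNA genes alone and 3 a mixture. SNHG1 (chr11:62851984-62855953, minus strand, hg38) holds 8 SNORD genes, and GAS5 (chr1:173858559-173868882, minus strand) holds 10 SNORD genes and SNORA103. The small RNAs themselves could hardly be read in these poly(A) libraries. The tables have 135 rows for snoRNA genes inside the members, and 4 of them reached 20 counts summed over the inducible libraries. The values below therefore describe host transcripts, not snoRNAs.

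The starts of 6 host genes are shown here because SNHG5, ZFAS1, SNHG19 and SNHG16 fell after 48 h of doxorubicin in GFP cells, whereas SNHG1 and SNHG12 rose. Each sequence runs 5′ to 3′ on the gene's own strand, from 60 bases before to 40 bases after the start that RefSeq annotates (GRCh38.p14). Capitals mark a C followed by at least 4 pyrimidines whose first base lies within 5 bases of that start. GAS5, SNHG29 and EPB41L4A-AS1 also fell in GFP cells, had no such run and are not printed, so the choice shown does not link runs with falls. The windows are chr6:85678694-85678793 (minus) for SNHG5, chr20:49278582-49278681 (plus) for ZFAS1, chr16:2155319-2155418 (minus) for SNHG19, chr17:76557704-76557803 (plus) for SNHG16, chr11:62855846-62855945 (minus) for SNHG1 and chr1:28581834-28581933 (minus) for SNHG12.
SNHG5: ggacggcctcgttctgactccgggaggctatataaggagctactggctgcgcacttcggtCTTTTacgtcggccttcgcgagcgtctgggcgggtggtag
ZFAS1: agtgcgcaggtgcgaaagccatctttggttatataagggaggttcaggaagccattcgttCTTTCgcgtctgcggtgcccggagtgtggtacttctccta
SNHG19: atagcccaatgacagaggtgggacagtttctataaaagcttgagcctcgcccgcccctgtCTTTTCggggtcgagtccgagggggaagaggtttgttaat
SNHG16: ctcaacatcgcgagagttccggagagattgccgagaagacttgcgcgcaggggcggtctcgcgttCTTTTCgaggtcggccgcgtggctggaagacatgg
SNHG1: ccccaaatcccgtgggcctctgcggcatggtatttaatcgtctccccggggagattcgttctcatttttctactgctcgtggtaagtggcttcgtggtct
SNHG12: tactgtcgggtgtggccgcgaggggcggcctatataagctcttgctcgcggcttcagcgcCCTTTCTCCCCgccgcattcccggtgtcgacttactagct

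A promoter of 300 bases was on hand for 27 of the 31 genes, and 12 of them (44.4%) had such a run, against 21.1% of 35116 RefSeq promoters. The printed run begins at the annotated start in SNHG5, ZFAS1, SNHG19 and SNHG12, and 5 bases after it in SNHG16. In SNHG12 a further C, not in capitals, stands directly before the marked run. In SNHG1 the pyrimidines at the start are broken by an A, so the letters searched were not found. Only 8 of the 27 RefSeq starts lie within 10 bases of the start in the count annotation, so the share with a run describes RefSeq starts. Among the printed genes, the RefSeq start lies downstream of the counted one by 1259 bases in SNHG12, 464 in ZFAS1, 199 in SNHG5 and 68 in SNHG1. The annotated start of GAS5 used by RefSeq lies 163 bases upstream of the one in the count annotation, and it had no such run. The E-box CACGTG, which reads the same on both strands, lay in 2 of the 27 promoters (7.41%) against 7.26% of all. A match describes the letters and was not tested as a functional site.

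Depth was 5729294 to 24713822 counts per library in the transient system and 18300628 to 23724398 in the inducible system. ZMYND8 itself was measured at 209 and 208 TMM-normalized CPM (counts scaled to library size) in untreated GFP cells, and at 922 and 927 in untreated ZMYND8 cells. Of the transient libraries, those labelled ZMYND8 plus doxorubicin had 160 and 125 CPM of it, within the range of the doxorubicin libraries (182 and 123), so these 2 libraries do not show the overexpression that their label names. The second of them and the second doxorubicin library were near identical (chi-square 1.39 over its degrees of freedom, where the next closest transient pair gave 9.71). The transient counts do not separate the strands, since antisense genes within exons of an expressed gene had up to 1.70 times the read density of their sense partners, against at most 0.104 in the inducible libraries. For hosts such as EPB41L4A-AS1, with 56.4% of its exon length opposite exons of EPB41L4A, transient values may hold reads of both strands. Vimentin, a mesenchymal marker of this line, had at least 11937 counts in every library. Of 5 markers of other cell types, HBA1 and ALB had at most 4 counts in any library, and the sum of all 5 was 7.49 to 33.5 CPM.

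The host genes took a small and shifting share of the counts. In GFP cells the 31 genes together made up 0.137% and 0.138% of counts without doxorubicin, 0.137% and 0.135% after 6 h, and 0.126% and 0.124% after 48 h. In ZMYND8 cells they made up 0.155% and 0.154%, then 0.170% and 0.159%, then 0.225% and 0.220%. The share was thus highest in ZMYND8 cells after 48 h, with no overlap with any other inducible condition. In bulk RNA scaled to library totals, a change in the mix of cells and a change in RNA per cell cannot be told apart. In the transient libraries it lay between 0.0862% and 0.135%.

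Per kilobase of exon, SNHG29 was the most abundant host, at 98.5 ± 1.77 CPM per kb (SD, n = 2) in untreated GFP cells. SNHG6 followed at 38.2 ± 1.01, then SNHG19 at 25.2 ± 0.149, SNHG16 at 21.7 ± 0.770 and SNHG5 at 20.6 ± 0.971. SNHG16 and SNHG5 overlapped between libraries. This order depends on the annotated exon length, which was 342 bases for SNHG19 and 8414 for SNHG5. In raw counts of untreated GFP cells SNHG19 had 171 and 163, and SNHG5 had 3529 and 3173. GAS5 stood at 18.8 ± 0.696 and SNHG1 at 8.32 ± 0.712 CPM per kb, the latter overlapping with SNHG3. In untreated ZMYND8 cells SNHG1 stood at 16.03 ± 0.328 CPM per kb, below SNHG5 at 18.5 ± 0.0245 and above SNHG19 at 11.2 ± 1.03. After 48 h of doxorubicin in ZMYND8 cells it was second, at 70.8 ± 2.98 CPM per kb, below SNHG29 at 117 ± 2.19 and above GAS5 at 31.7 ± 0.0518. At the other end, SNHG28 had no count in any library, and SNHG32 had at most 1 count in a library. All of SNHG28's exon length and 29.1% of SNHG32's is shared with other genes on the same strand, where read pairs are not assigned to either gene. The rest of SNHG32's exon length is not shared, and why it had almost no counts was not tested. In the inducible system 27 hosts passed the filter on low counts, and 24 did in the transient system. SNHG22 and SNHG27 passed in neither system, and SNHG21, SNHG25 and SNHG31 passed in the inducible system only. SNHG14, a very long host of the SNORD115 and SNORD116 clusters, was at 4.90 to 15.1 CPM in the transient and at most 0.726 CPM in the inducible libraries, tables that were scaled apart. Of its exon length, 1.32% lies opposite exons of other genes, UBE3A among them, so its transient values may hold reads of both strands. The reason for the difference was not tested. A host that is high in a single condition could pass through that condition. SNHG25 did so, with 16 and 15 counts in ZMYND8 cells at 48 h and at most 8 in any other inducible library. Its calls that involve that condition stand in the counts below but are no support for a rise.

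**Figure D1:**
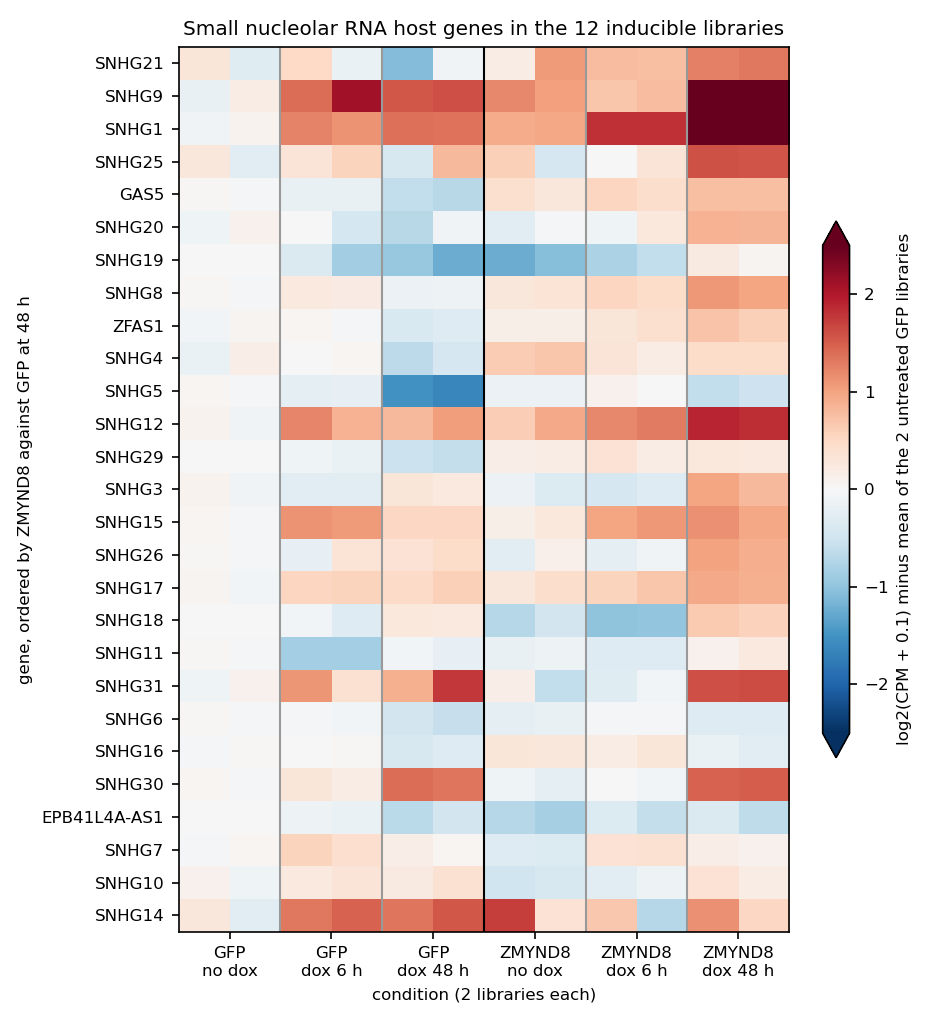
Level of the 27 host genes that passed the filter in each of the 12 inducible libraries, as log2(CPM + 0.1) minus the mean of both untreated GFP libraries; columns are libraries in pairs by condition, rows are ordered by the difference between ZMYND8 and GFP cells after 48 h, and colours end at 2.5 on either side. SNHG1 and SNHG9 exceed the scale after 48 h of doxorubicin in ZMYND8 cells, and SNHG5 is lowest after 48 h in GFP cells.

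The first question was how doxorubicin alone moved the hosts in GFP cells. After 6 h, 8 of 27 rose and 6 fell, with calls set at adjusted p ≤ 0.05 (edgeR quasi-likelihood test, adjusted over all genes). Of the 18801 genes tested, 47.9% passed in the same comparison (22.1% higher and 25.8% lower), so the hosts were called about as often as genes at large. SNHG1 was at 31.02 and 35.0 CPM without the drug and at 77.8 and 71.8 after 6 h. Both treated libraries lay above both untreated ones, a rise of 1.18 ± 0.06 on the log2 scale (SE, adjusted p = 6.05e-15). SNHG15 went from 13.8 and 12.8 to 29.2 and 28.0 CPM, 2.15-fold higher. SNHG12, which carries SNORA44, SNORA61 and SNORD99, went from 5.47 and 4.85 to 12.2 and 9.47 CPM, 2.10-fold higher. SNHG17, host of the SNORA71 family, rose by 0.54 ± 0.09 (log2). Of the hosts below an average log2 CPM of 1, SNHG9 rose from 0.304 and 0.422 to 1.10 and 1.87 CPM, and SNHG14 was also called higher.

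The falls at 6 h were smaller. SNHG11 fell by 0.86 ± 0.16 on the log2 scale, from 7.20 and 6.96 to 3.88 and 3.91 CPM. SNHG19 fell by 0.60 ± 0.17, SNHG3 by 0.28 ± 0.08 and SNHG5 by 0.22 ± 0.05. GAS5 went from 93.6 and 88.8 to 80.3 and 80.3 CPM, a log2 difference of -0.18 ± 0.05 (adjusted p = 0.00458). ZFAS1 (0.02 ± 0.08) and EPB41L4A-AS1 (-0.14 ± 0.10) did not pass the test at 6 h.

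After 48 h in GFP cells, 11 hosts rose and 9 fell, where 64.2% of all genes were called (32.4% higher and 31.8% lower) beside 74.1% of the hosts. Without the second untreated GFP library, or without the second GFP library at 48 h, 7 rose and 9 fell. SNHG5 showed the largest fall, from 179 and 167 CPM to 60.9 and 55.9, which is 2.97-fold lower (adjusted p = 1.16e-19). SNHG19 went from 8.67 and 8.60 to 4.44 and 3.62 CPM, 2.14-fold lower. GAS5 fell to 59.8 and 56.0 CPM, a log2 difference of -0.66 ± 0.05 (adjusted p = 2.21e-11). These 3 hosts were lower in both treated libraries than in either untreated one. They were named as the largest falls, so this separation is no further support, and its share over all genes was not counted.

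SNHG29 fell from 698 and 716 to 488 and 469 CPM (-0.56 ± 0.05 on the log2 scale). EPB41L4A-AS1, host of SNORA13, fell from 23.8 and 24.4 to 15.1 and 17.5 CPM (-0.56 ± 0.10). ZFAS1, host of the SNORD12 family, fell from 26.3 and 29.3 to 21.4 and 22.3 CPM (-0.34 ± 0.08, adjusted p = 0.000465). With scaling by total counts, the median gene moved by 0.27 on the log2 scale in this comparison, against 0.03 with the scaling used here, and ZFAS1 was then no longer called.

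In the other direction, SNHG30, host of SNORD7, went from 8.36 and 7.91 to 21.5 and 20.7 CPM after 48 h, 2.59-fold higher. SNHG1 rose to 85.6 and 84.7 CPM, 2.58-fold higher than without the drug (adjusted p = 4.00e-17). SNHG12 was 1.91-fold and SNHG17 1.45-fold higher. The median difference of the hosts was 0.11 on the log2 scale beside 0.03 over all genes, and its sign was not stable. It was -0.03 and -0.05 without the first and the second untreated GFP library, and -0.11 without the second GFP library at 48 h.

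The same drug was then followed in ZMYND8 cells. At 6 h, 11 hosts rose and 2 fell, where 40.8% of all genes were called (21.8% higher and 19% lower). With scaling by total counts the split was 5 higher and 4 lower, and GAS5, ZFAS1 and EPB41L4A-AS1 were among the rises that were lost, so the small rises at this time depend on the scaling. Without the first untreated ZMYND8 library 8 hosts were called. SNHG1 rose from 62.7 and 64.6 to 117 and 117 CPM (0.88 ± 0.05, log2), SNHG15 from 14.7 and 16.02 to 26.6 and 28.3 (0.83 ± 0.09) and SNHG7 from 43.1 and 42.3 to 69.5 and 69.9 (0.71 ± 0.06). SNHG12 rose by 0.45 ± 0.13. GAS5 (0.15 ± 0.05), ZFAS1 (0.21 ± 0.07) and EPB41L4A-AS1 (0.32 ± 0.11) passed the test with small differences. SNHG18 fell by 0.42 ± 0.11 and SNHG4 by 0.41 ± 0.10.

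At 48 h in ZMYND8 cells, 20 of 27 hosts rose and 2 fell. Of all genes 31.6% rose, 30.8% fell and 62.3% were called in either direction, and the median host differed by 0.72 on the log2 scale beside 0.05 over all genes. SNHG1 reached 290 and 273 CPM, 4.42-fold above untreated ZMYND8 cells (adjusted p = 1.51e-22). SNHG30 went from 7.59 and 6.83 to 22.9 and 23.4 CPM, 3.22-fold higher. SNHG19 went from 3.57 and 4.07 to 10.1 and 9.02 CPM, 2.49-fold higher. SNHG18, host of SNORD123, went from 11.7 and 14.1 to 30.3 and 28.8 CPM, 2.28-fold higher.

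All 4 of these hosts had both treated libraries above both untreated ones. They were named as the largest rises, so this separation is no further support. The share of all genes separated in this way was not counted. GAS5 went from 120 and 111 to 153 and 154 CPM (0.41 ± 0.05, log2). ZFAS1 went from 30.8 and 30.6 to 45.6 and 42.2 CPM (0.52 ± 0.07). EPB41L4A-AS1 went from 14.7 and 13.5 to 18.7 and 15.4 CPM (0.28 ± 0.11), a call that was lost with DESeq2, without the filter on low counts and when the first library of the treated cells or the second of the untreated cells was left out.

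The 2 hosts that fell were SNHG16, from 143 and 142 to 104 and 95.2 CPM (-0.52 ± 0.05), and SNHG5, from 156 and 155 to 113 and 120 CPM (-0.41 ± 0.05). Among low hosts, SNHG9, host of SNORA78, went from 0.949 and 0.832 to 4.47 and 4.13 CPM, and SNHG31 and SNHG25 were also called higher. SNHG25 had passed the filter through this condition alone.

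**Figure D2:**
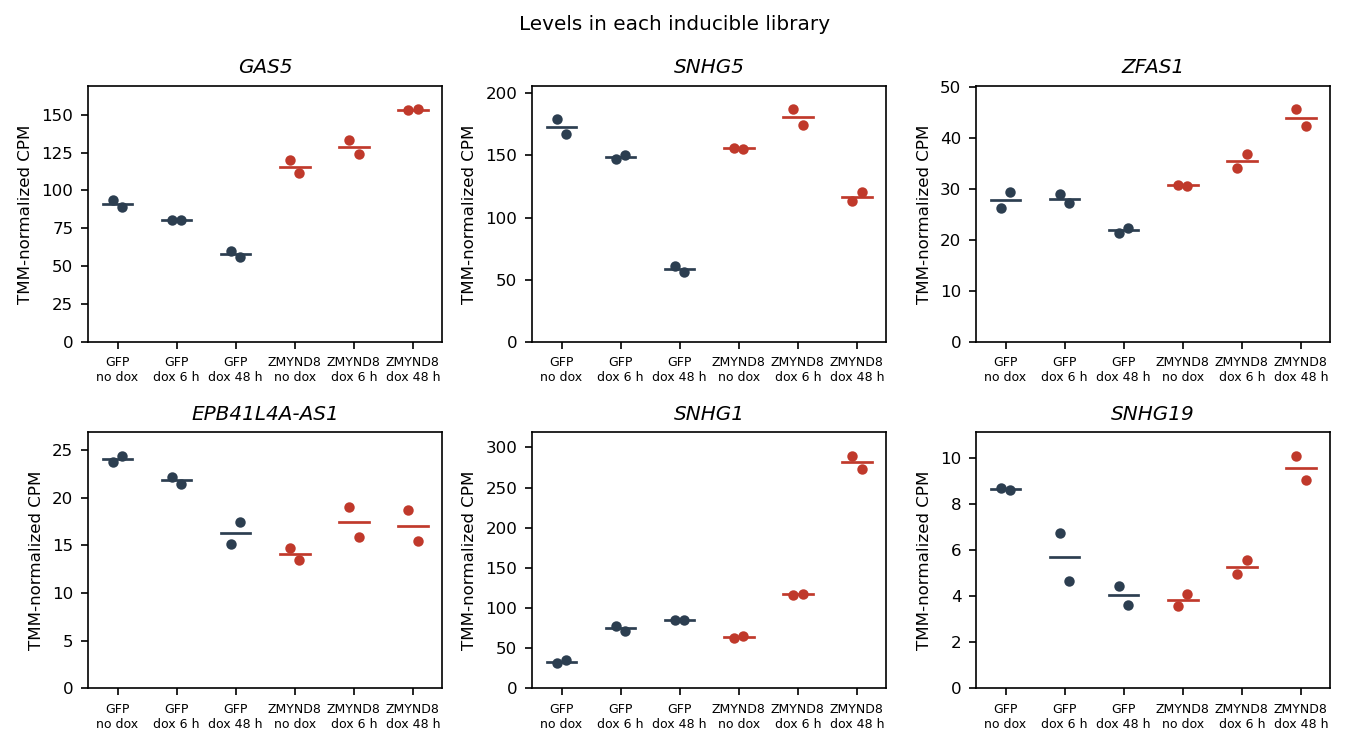
TMM-normalized CPM of 6 host genes in each inducible library (points) with the mean of 2 libraries (line) for GFP cells (dark) and ZMYND8 cells (red) without doxorubicin and after 6 h and 48 h. GAS5, SNHG5, ZFAS1, EPB41L4A-AS1 and SNHG19 are lower after 48 h than without the drug in GFP cells, while SNHG1 is higher in both lines.

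The 2 lines share no library in these comparisons, so the direction of each host can be set side by side. The share of all genes with each joint pattern was not counted, so the counts of hosts here are a description only. Of all genes, 32.4% rose and 31.8% fell at 48 h in GFP cells, and 31.6% rose and 30.8% fell in ZMYND8 cells. At 48 h, 10 hosts rose in both lines, among them SNHG1, SNHG3, SNHG12, SNHG15, SNHG17, SNHG18 and SNHG30. In GFP cells the call of SNHG18 was lost whichever library of that comparison was left out, and that of SNHG3 without the second untreated library. GAS5, ZFAS1, EPB41L4A-AS1 and SNHG19 fell in GFP cells and rose in ZMYND8 cells. SNHG5 and SNHG16 fell in both. SNHG4, SNHG6 and SNHG29 fell in GFP cells and did not pass in ZMYND8 cells. SNHG7, SNHG8, SNHG10, SNHG11, SNHG20 and SNHG25 were called higher in ZMYND8 cells and did not pass in GFP cells, though SNHG7 and SNHG10 also passed in GFP cells with scaling by total counts and with DESeq2's scaling in edgeR. The call of SNHG11 in ZMYND8 cells was lost without the filter, with DESeq2 and whichever library of that comparison was left out. SNHG14 was called higher in GFP cells, a call lost with DESeq2 and without any 1 library of that comparison, and did not pass in ZMYND8 cells. SNHG21 passed in neither line. At 6 h the opposite calls were those of GAS5 and SNHG5, which were lower in GFP cells and higher in ZMYND8 cells.

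The difference between the responses was tested as an interaction, which is the change with doxorubicin in ZMYND8 cells minus that in GFP cells. At 48 h, 15 of 27 hosts were higher and none lower, where 12.7% of all genes were higher, 15.8% lower and 28.6% called. The median over the hosts was 0.60 on the log2 scale beside -0.01 over all genes. SNHG19 had the largest called difference, 2.41 ± 0.24 (adjusted p = 1.21e-08), followed by SNHG20 at 1.41 ± 0.36 (adjusted p = 0.00342), SNHG5 at 1.16 ± 0.07 (adjusted p = 2.00e-12) and GAS5 at 1.07 ± 0.07 (adjusted p = 1.02e-11).

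ZFAS1 (0.86 ± 0.11), EPB41L4A-AS1 (0.84 ± 0.15) and SNHG1 (0.77 ± 0.08) were also higher. SNHG19 moved in opposite directions in the 2 lines, SNHG5 fell in both but less in ZMYND8 cells, and SNHG1 rose in both but more in ZMYND8 cells. With scaling by total counts 14 were higher and 1 lower. DESeq2 called 13, all higher.

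**Figure D3:**
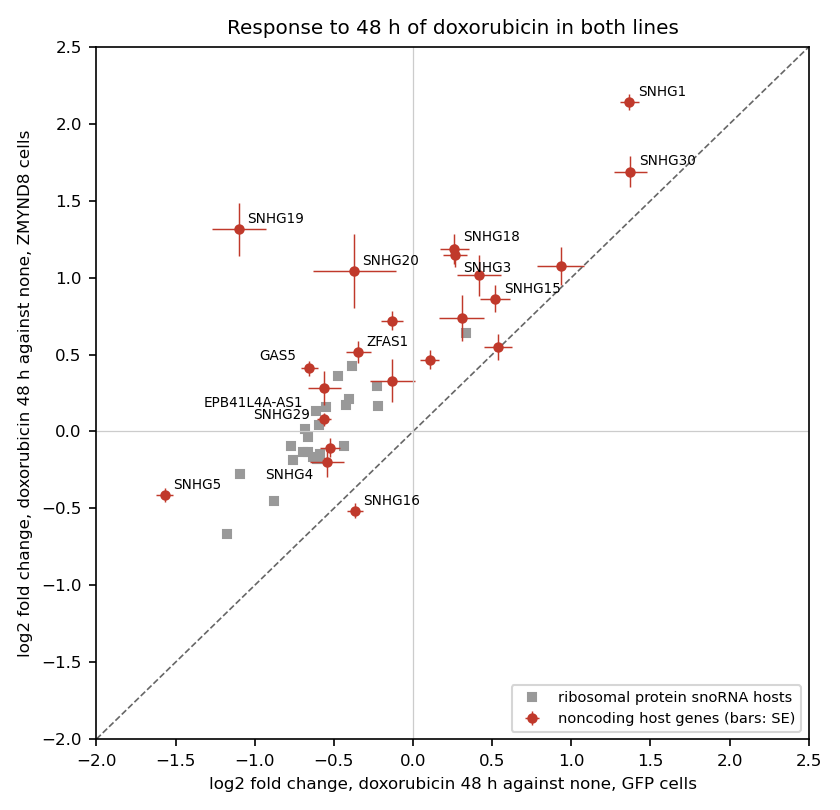
Log2 fold change after 48 h of doxorubicin in GFP cells (x axis) against that in ZMYND8 cells (y axis), for 22 host genes with an average log2 CPM of at least 1 (red points, bars are standard errors) and 24 ribosomal protein genes that host snoRNAs (grey squares); the dashed line marks equal changes. Of the 22 host genes, 21 lie above the line, and SNHG16 lies below it. The share of all genes above the line was not counted. Their median difference between the 2 responses was -0.01 on the log2 scale.

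At 6 h the interaction was called for 10 hosts, 6 higher and 4 lower, where 13.4% of all genes were called (7.86% higher and 5.52% lower). SNHG19 (1.06 ± 0.25), SNHG11 (0.69 ± 0.22), EPB41L4A-AS1 (0.46 ± 0.15), SNHG5 (0.44 ± 0.07) and GAS5 (0.34 ± 0.07) were higher. SNHG12 (-0.62 ± 0.20), SNHG4 (-0.43 ± 0.14) and SNHG1 (-0.31 ± 0.08) were lower. For SNHG1 this means a smaller rise at 6 h in ZMYND8 cells and a larger one at 48 h. Its call at 6 h was lost without the first untreated GFP library or the first GFP library at 6 h. With scaling by total counts the split at 6 h was 3 higher and 5 lower. DESeq2 called 5, of which 4 were higher. Without the first untreated GFP library 5 hosts were called, and without either GFP library at 6 h 6 were. SNHG11 lost its call with total-count scaling, without the filter on low counts, with DESeq2 and whichever library was left out. EPB41L4A-AS1 lost its call under both other scalings, without the filter and with DESeq2. The calls of EPB41L4A-AS1, SNHG4 and SNHG12 were also lost in several of the fits with 1 library left out.

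The lines also differed before doxorubicin. Without the drug, 9 hosts were higher and 8 lower in ZMYND8 than in GFP cells, where 58.3% of all genes were called (28.7% higher and 29.5% lower). SNHG1 was 1.93-fold higher, at 62.7 and 64.6 CPM against 31.02 and 35.0 (adjusted p = 3.01e-13). SNHG12 (0.82 ± 0.15), SNHG4 (0.66 ± 0.10), SNHG17 (0.37 ± 0.09) and GAS5 (0.34 ± 0.05) were higher on the log2 scale. SNHG19 was 2.25-fold lower, at 3.57 and 4.07 against 8.67 and 8.60 CPM. EPB41L4A-AS1 was lower by 0.78 ± 0.11, SNHG18 by 0.58 ± 0.10 and SNHG10 by 0.46 ± 0.16. Of all these, the values of each line did not overlap, which is no further support for hosts named by their calls. The share of all genes without overlap was not counted. ZFAS1 (0.14 ± 0.08) did not pass.

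Marker genes differed between the lines as well. Of the markers of other cell types, the 3 that could be tested (PTPRC, PECAM1 and COL1A1) were lower in ZMYND8 than in GFP cells without the drug, at 6 h and at 48 h, with medians of -2.07, -1.07 and -1.11 on the log2 scale. The sum of the 5 markers was 19.2 to 20.7 CPM in GFP and 9.58 to 10.2 in ZMYND8 cells without the drug, 14.6 to 15.6 and 7.49 to 8.25 at 6 h, and 29.1 to 29.9 and 11.1 to 13.02 at 48 h. ALB and HBA1 were at 0 in untreated GFP cells and in both lines at 6 h. Of 9 markers chosen to check the cell line, 6 were lower and 1 higher in ZMYND8 cells without the drug, 5 lower and 3 higher at 6 h, and 5 lower and 2 higher at 48 h. Over all genes 29.5%, 26.6% and 31.6% were lower and 28.7%, 28.9% and 28.4% higher, in the same order. The part of these differences in the host levels was not tested.

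After 6 h of doxorubicin, 8 hosts were higher and 5 lower in ZMYND8 cells, where 55.5% of all genes were called (28.9% higher and 26.6% lower). GAS5 (0.68 ± 0.05), SNHG1 (0.64 ± 0.05), SNHG11 (0.53 ± 0.16) and SNHG29 (0.42 ± 0.05) showed the largest positive differences on the log2 scale. SNHG18 was lower by 0.81 ± 0.11, SNHG10 by 0.48 ± 0.15, EPB41L4A-AS1 by 0.32 ± 0.11 and SNHG30 by 0.29 ± 0.12. ZFAS1 was higher by 0.33 ± 0.08.

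After 48 h, 20 of 27 hosts were higher in ZMYND8 than in GFP cells and none was lower. The 20 include SNHG25, which passed the filter only through ZMYND8 cells at 48 h. Of all genes 60% were called, 28.4% higher and 31.6% lower. The median host differed by 0.63 on the log2 scale beside -0.04 over all genes. SNHG1 was 3.30-fold higher, at 290 and 273 CPM against 85.6 and 84.7 (adjusted p = 4.59e-21). GAS5 was 2.65-fold higher, at 153 and 154 against 59.8 and 56.0 (adjusted p = 1.27e-18).

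SNHG20, which carries SCARNA16, was 2.39-fold higher and SNHG19 2.37-fold higher. ZFAS1 was 2.01-fold higher, at 45.6 and 42.2 against 21.4 and 22.3 CPM. EPB41L4A-AS1, at 18.7 and 15.4 against 15.1 and 17.5 CPM, overlapped between the lines and did not pass (adjusted p = 0.612). The other 6 that did not pass were SNHG7, SNHG10, SNHG11, SNHG14, SNHG30 and SNHG31.

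The comparisons of the lines at 48 h share libraries with the interaction and with each drug response, so their counts are not separate evidence. All 20 higher calls were kept with scaling by total counts and with DESeq2's scaling in edgeR, and DESeq2 called 18 of them.

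**Figure D4:**
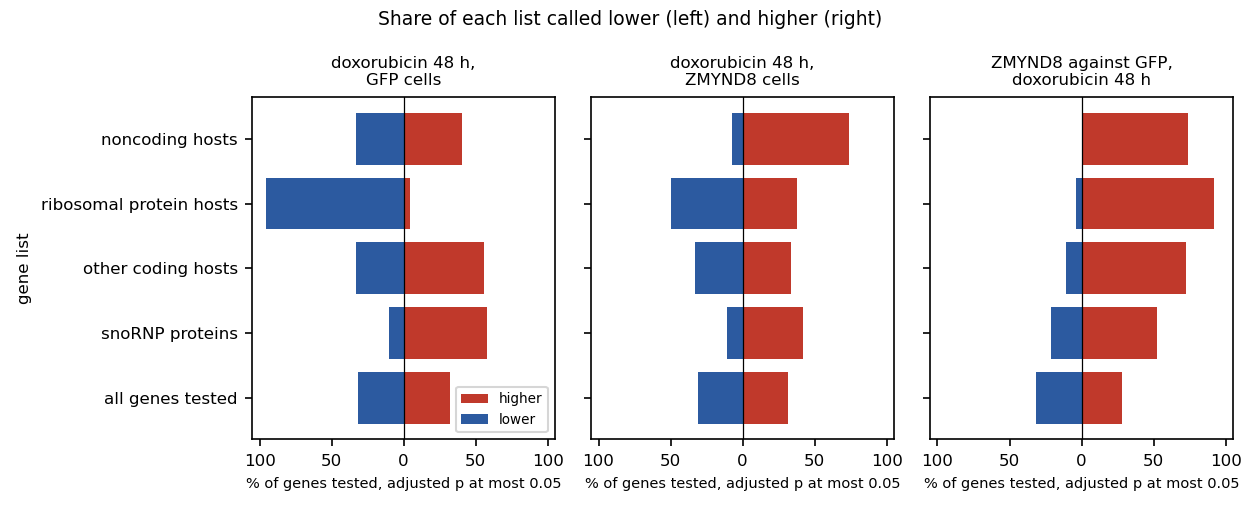
Percentage of the tested genes of each list called lower (blue, to the left) and higher (red, to the right) at adjusted p ≤ 0.05 after 48 h of doxorubicin in GFP cells, in ZMYND8 cells, and between the lines at 48 h. The lowest bars, for all 18801 genes tested, are near equal in both directions, while 20 of 27 noncoding hosts and 22 of 24 ribosomal protein hosts are higher in ZMYND8 than in GFP cells at 48 h.

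Other hosts of snoRNAs code for proteins. Of 24 ribosomal protein genes that carry snoRNAs, 23 fell and 1, RPL17, rose after 48 h in GFP cells, with a median of -0.61 on the log2 scale beside 0.03 over all genes. In that comparison 31.8% of all genes fell and 32.4% rose. In ZMYND8 cells 9 rose and 12 fell, with a median of -0.07, where 31.6% of all genes rose and 30.8% fell. The interaction at 48 h was higher for 23 of 24 (median 0.57) and at 6 h for 20 of 24 (median 0.23), beside 12.7% and 7.86% of all genes. RPS12 (0.84), RPL37 (0.82) and RPS20 (0.81) had the largest values at 48 h. Among 18 other coding hosts the interaction at 48 h was higher for 4 and lower for 7, with NCL (nucleolin) at -0.23 and TPT1, a further TOP gene, at 0.48. Over all genes it was higher for 12.7% and lower for 15.8%. DANCR, a noncoding host outside the rule, differed by 0.26, which did not pass.

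Among 11 noncoding hosts tested with a pyrimidine run at the start, 5 fell and 4 rose after 48 h in GFP cells, and among 12 without one, 3 fell and 5 rose. Over all genes 31.8% fell and 32.4% rose. The interaction at 48 h was higher for 6 of 11 and 7 of 12, beside 12.7% of all genes. These counts are a description with no test, and GAS5, whose RefSeq start lies upstream of the counted one, stands among the hosts without a run. Only 8 of the 27 RefSeq starts searched lie within 10 bases of the counted start.

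Proteins that bind snoRNAs were read beside the hosts. Of 19 genes for snoRNP proteins and their assembly factors, 16 rose after 6 h in GFP cells and 17 in ZMYND8 cells, with medians of 0.68 and 0.47 on the log2 scale. In the same comparisons 22.1% and 21.8% of all genes rose. NOP56, a core protein of box C/D particles, rose by 1.45 and DKC1, the pseudouridine synthase of H/ACA particles, by 1.15 in GFP cells, while FBL (fibrillarin, the methyltransferase) rose by 0.18. The interaction at 48 h was higher for 1 of 19 and lower for 6, beside 12.7% and 15.8% of all genes.

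Over all genes the interaction at 48 h was higher for 12.7% and lower for 15.8%. Of 18 genes of nonsense-mediated decay and the exon junction complex, it was higher for 2 and lower for 9, with UPF1, the central helicase of the pathway, at -0.29 and SMG9 at -0.59. SMG1, the kinase that acts on UPF1, was higher at 0.48, and UPF3B did not pass (-0.24). Of 12 genes for translation of TOP mRNAs, the interaction at 48 h was higher for 1, TSC1, and lower for 6, among them LARP1 (-0.27), which binds TOP mRNAs, and MTOR (-0.48). The part of these genes in the host levels was not tested.

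In the transient system, doxorubicin for 48 h lowered 1 of 24 hosts and raised none, where 5.13% of all genes were called (2.98% higher and 2.15% lower). SNHG5 went from 174 and 112 CPM in control cells to 74.5 and 50.3, 2.31-fold lower (adjusted p = 0.0274, edgeR), with no overlap between the groups. The call was lost when the first control library (log2 -0.87, adjusted p = 0.0996) or the second doxorubicin library (-0.94, adjusted p = 0.212) was left out, and 3 hosts were called without the second control library. GAS5 went from 223 and 124 to 97.4 and 94.4 CPM (-0.85 ± 0.26, adjusted p = 0.0809), so that the first control library stood apart from the second.

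With the replicate number as a block, 3 hosts were lower, SNHG5, GAS5 (-0.81, adjusted p = 0.0223) and SNHG15. SNHG1 was at 57.8 and 42.5 CPM in control cells and at 60.3 and 101 with doxorubicin (0.69 ± 0.30, adjusted p = 0.204). EPB41L4A-AS1 (-0.72 ± 0.26) and ZFAS1 (-0.18 ± 0.29) did not pass. The median over the 24 hosts was -0.38 on the log2 scale beside 0.00 over all genes, but -0.04 without the first control library.

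Compared with control cells, 2 of 24 hosts were lower and none higher where the label names ZMYND8 plus doxorubicin, while 6.82% of all genes were called (3.85% higher and 2.97% lower). SNHG5, at 60.2 and 58.9 CPM, was 2.40-fold lower (adjusted p = 0.0194), and GAS5, at 83.0 and 90.9 CPM, was 1.99-fold lower (adjusted p = 0.0458). Neither call held without the first control library, nor without either of the labelled libraries. With the replicate number as a block 5 hosts were called, 4 lower (SNHG5, GAS5, EPB41L4A-AS1 and SNHG14) and 1 higher (SNHG30). This comparison shares its control libraries with the previous one. Its second treated library was also near identical to the second doxorubicin library (chi-square 1.39 over its degrees of freedom). The falls of SNHG5 and GAS5 here are thus not separate evidence. Against doxorubicin alone none of 24 hosts was called, by edgeR or by DESeq2, none reached an unadjusted p under 0.05, and no gene of the 15697 tested was called (0%). With that near-identical pair and no raised ZMYND8 in the labelled libraries, this comparison cannot show whether ZMYND8 changes the hosts.

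**Figure D5:**
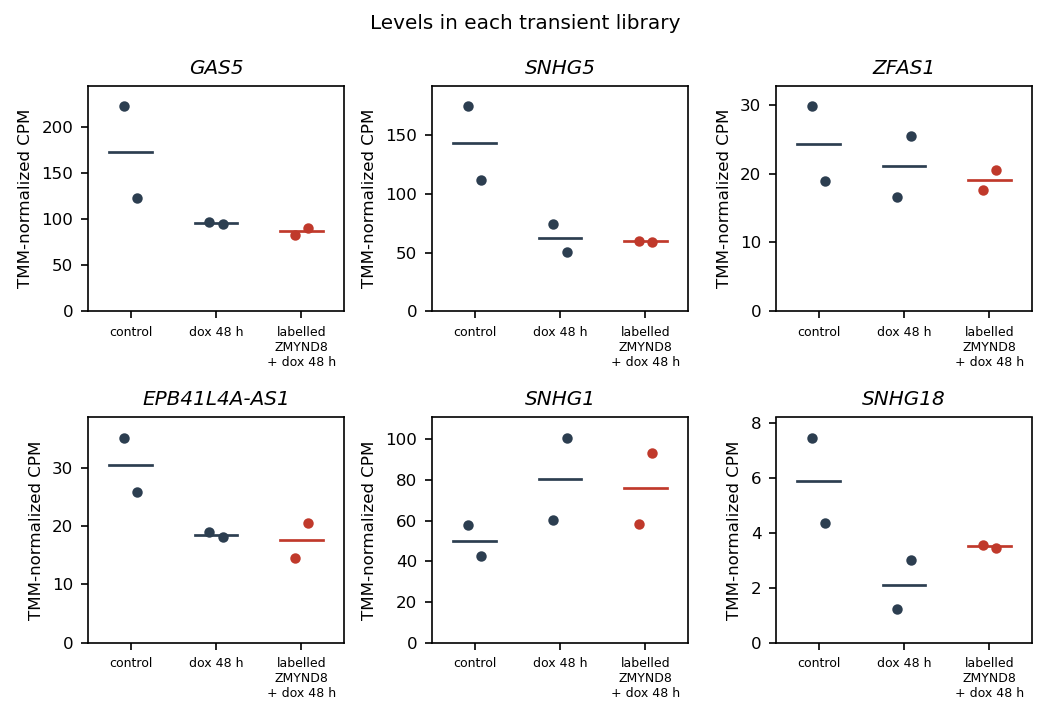
TMM-normalized CPM of 6 host genes in each transient library (points) with the mean of 2 libraries (line), for control cells, doxorubicin for 48 h and the libraries labelled ZMYND8 plus doxorubicin (red). GAS5 and SNHG5 lie below both control libraries in all 4 treated libraries, and the 2 control libraries differ more from each other than the GAS5 values of either treated pair. The second libraries of the 2 treated groups were near identical.

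The study's own criterion, an unadjusted p of at most 0.05 with a log2 change of at least 1 (transient system) or 1.5 (inducible system), left few hosts. In GFP cells it called SNHG9 and SNHG14 at 6 h (2 of 27, beside 4.71% of all genes) and SNHG5, SNHG9, SNHG14 and SNHG31 at 48 h (4 of 27, beside 13.2% of all genes). In ZMYND8 cells it called none at 6 h (2.73% of all genes) and 5 at 48 h, all higher (SNHG1, SNHG9, SNHG25, SNHG30 and SNHG31, beside 12.4% of all genes). Between the lines it called none without the drug, 1 at 6 h (SNHG14, lower) and 4 at 48 h (SNHG1, SNHG9, SNHG21 and SNHG25, higher), beside 11.4%, 10.6% and 9.44% of all genes. For the interactions it called 2 at 6 h (SNHG9 and SNHG14) and 2 at 48 h (SNHG14 and SNHG19), beside 2.01% and 3.7%. In the transient system it called SNHG5 and SNHG18 with doxorubicin (8.7% of all genes), SNHG5 alone in the labelled libraries (9.84%), and none between the treated groups (0.159%). SNHG18 was at 7.44 and 4.35 CPM in control cells and at 1.22 and 3.01 with doxorubicin.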

How the data were processed

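The authors deposited raw counts (read pairs) for 60603 genes in each of 2 tables. Their headers name featureCounts 1.6.4, the exons of GENCODE 31 (hg38) and a reverse-stranded setting. The paper's methods name TopHat as aligner, the submitters' processing notes HISAT2. Symbols came from a table of gene names, which matched 60261 rows. Members and lists were chosen with earlier results of these data known. Groups came from the sample labels. Each system was fitted in edgeR 4.0.16 (R 4.3.3) with TMM factors, its filter by expression, 1 mean per condition and the quasi-likelihood test, with Benjamini-Hochberg adjustment over 15697 (transient) or 18801 (inducible) genes; 12 comparisons were made. The scripts were tested on simulated data. At 2 libraries per condition, a two-sided exact permutation test of 1 value cannot go below 0.333. Levels are TMM-scaled CPM. Values are given for GAS5, ZFAS1, EPB41L4A-AS1, SNHG1 and at most 4 called rises and 4 called falls per comparison with an average log2 CPM of at least 1; other hosts named were chosen after their values were seen. Promoters came from RefSeq. Same-numbered transient libraries deviated together (correlations 0.208 to 0.404 over 3 pairs of conditions), so the fit with replicates paired is given beside transient counts. Alternatives were total-count and RLE scaling, no filter, DESeq2 1.42.0, a replicate block, leaving out libraries, and the study's criterion (unadjusted p of at most 0.05 and a log2 change of 1 or, in the inducible system, 1.5).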

Additional observations from a re-analysis of the deposited data

Results flagged for a closer look

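The response to doxorubicin differed between ZMYND8 and GFP cells for 15 hosts at 48 h and 10 at 6 h, by edgeR's interaction term at an adjusted p of at most 0.05. At 48 h, as log2 differences, SNHG19 had 2.41, SNHG20 1.41, SNHG5 1.16, GAS5 1.07, SNHG18 0.92, SNHG3 0.88, ZFAS1 0.86, SNHG8 0.85, EPB41L4A-AS1 0.84, SNHG1 0.77, SNHG29 0.64, SNHG26 0.60, SNHG6 0.42, SNHG7 0.36 and SNHG15 0.34. The last of these, SNHG15, had an adjusted p of 0.0499 and lost its call under total-count scaling, RLE scaling, no filter, the replicate block and DESeq2. At 6 h, SNHG19 had 1.06, SNHG11 0.69, EPB41L4A-AS1 0.46, SNHG5 0.44, GAS5 0.34 and SNHG29 0.24, and SNHG1 had -0.31, SNHG4 -0.43, SNHG12 -0.62 and SNHG9 -2.44. SNHG9 was below 2 CPM in all the libraries of that comparison. Of the calls at 6 h, SNHG11 was lost under total-count scaling, no filter, DESeq2 and every leaving-out of 1 library, EPB41L4A-AS1 under both scalings, no filter and DESeq2, SNHG29 under total-count scaling, and SNHG4, SNHG12 and SNHG9 under DESeq2. Several leavings-out of 1 library also lost EPB41L4A-AS1, SNHG4 and SNHG12, and some lost SNHG1 or SNHG29.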

How the results depend on the processing

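None of 843 log2 fold changes of named hosts under other settings changed sign, and 153 of them fell below the threshold, 71 of those under the study's criterion. Values under that criterion repeat the reported fit, so their sign could not change. Counts of called hosts stayed within 1.5 times the reported count in 102 of 131 recalculations. Under the study's criterion the counts were 2, 1 and 0 in the transient comparisons, in the order of doxorubicin, labelled ZMYND8 plus doxorubicin, and their difference. In the inducible system that criterion gave 2 and 4 for GFP cells at 6 h and 48 h, 0 and 5 for ZMYND8 cells, 0, 1 and 4 for ZMYND8 against GFP without the drug, at 6 h and at 48 h, and 2 and 2 for the interactions. It requires a change that few hosts reached. For doxorubicin in the transient system the count of 1 became 3 without the filter, 3 with the replicate block and 2 with DESeq2. For the labelled libraries the count of 2 became 1 with total-count scaling, 5 with the replicate block and 1 without both near-identical libraries. Without both, SNHG5 was no longer called for doxorubicin alone. DESeq2 gave 8 hosts in ZMYND8 cells at 6 h against 13, and 5 for the interaction at 6 h against 10. The cause was not tested.

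Leaving out each library in turn gave 0 to 3 for both transient comparisons with control and 0 to 0 between the treated groups. It gave 11 to 13 and 16 to 18 in GFP cells at 6 h and 48 h, 8 to 10 and 19 to 21 in ZMYND8 cells, 13 to 17, 12 to 13 and 18 to 19 between the lines, and 5 to 8 and 13 to 16 for the interactions at 6 h and 48 h. In the inducible system same-numbered libraries did not deviate together (correlations -0.046 to 0.022), and the replicate block gave 14 called hosts for the interaction at 48 h, 11 at 6 h, and the reported counts elsewhere.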
